A study of Mus musculus with 4 samples.

Results

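The 9 transcripts described here encode the enzymes that make serine and pass its carbon through folate. They were taken by gene symbol from a table of 17194 genes: Phgdh, Psat1 and Psph for serine synthesis, Shmt1 and Mthfd1 for the cytosolic folate pathway, and Shmt2, Mthfd2, Mthfd1l and Aldh1l2 for the mitochondrial one. All 9 were in the table, and all 9 passed the filter on low counts that left 15651 genes for testing. The siHells group (n = 2 libraries) held primary mouse macrophages grown from bone marrow, given an siRNA against Hells and exposed to RANKL, a cytokine that turns such cells into bone-resorbing osteoclasts. The siControl group (n = 2) held the same kind of cells given a control siRNA and exposed to RANKL in the same way, and both groups were collected on day 2. Hells remodels chromatin and is required for DNA to be methylated normally, and the comparison asks which transcripts differ when it is depleted at this stage. The sources used here give no mouse strain, age or sex, no siRNA sequence and no number of animals or cultures.

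Serine is made from the glycolytic intermediate phosphoglycerate in a chain of reactions run by Phgdh (oxidation, the committed step), Psat1 (transamination) and Psph (dephosphorylation). Shmt2 in mitochondria and Shmt1 in the cytosol move a carbon from serine to tetrahydrofolate and release glycine. In mitochondria Mthfd2 and Mthfd1l carry that carbon on to formate, Aldh1l2 instead oxidises formyl-tetrahydrofolate to carbon dioxide while making NADPH, and in the cytosol Mthfd1 turns formate into the folates used for purines and thymidylate. Many of these genes, Phgdh, Psat1, Shmt2, Mthfd2 and Aldh1l2 among them, are known to be activated by the transcription factor ATF4 when amino acids run short or mitochondria are stressed.

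The pathway did not move as a block. Phgdh and Aldh1l2 rose about 2-fold, the 5 other folate enzymes fell by 1.30-fold to 2.11-fold, and Psat1 and Psph did not pass the test. In all, 7 of the 9 enzymes had an adjusted p under 0.05, 2 higher and 5 lower in siHells, against a background of 58.5% of all genes tested (29% higher and 29.5% lower). A call was therefore common in this comparison. By size, Phgdh lay at the 92.4th percentile of the log2 fold changes of all genes, Aldh1l2 at the 92.9th and Shmt1 at the 5.39th. Called at 1.5-fold or more were 2 of the 9 as higher, against 13% of all genes, and 3 as lower, against 11.9%. Each adjusted p comes from edgeR (quasi-likelihood, Benjamini-Hochberg over every gene tested), and a level is a CPM, the read count scaled to a common library size by TMM. The labels do not say whether the libraries of a group had separate cultures or animals as their source. The p-values then measure the spread between these samples alone, which may be technical.

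Total counts were 48873635 to 55642819 per library. Hells had 15.2 and 14.6 CPM in siHells, against 29.3 and 30.0 CPM in siControl (log2 fold change -0.99, SE 0.068), so the target was 1.99-fold lower. Nr2f2, the nuclear receptor named in the series title, had 1.92 and 2.29 CPM in siHells, against 0.236 and 0.759 CPM in siControl. Macrophage markers such as Csf1r and Adgre1 were abundant in every library, with 11 of 12 higher in siHells and summed levels of 31141 to 32166 CPM in siHells, against 18051 to 18168 CPM in siControl. All 12 osteoclast markers were lower, summing to 1450 to 1490 CPM in siHells, against 8978 to 9037 CPM in siControl. In such bulk samples, fewer cells of a type and less RNA per cell cannot be told apart. Of 12 stromal markers 10 were tested, 7 higher and 2 lower in siHells, and these summed to 1848 to 1875 CPM in siHells, against 1055 to 1080 CPM in siControl, with the defining markers Lum and Bglap not analysed here. The 9 neutrophil markers tested summed to 394 to 418 CPM in siHells, against 488 to 495 CPM in siControl, and the 3 lymphocyte markers tested to at most 7.43 CPM in any library. Of 9 dendritic cell markers 7 were tested, and they summed to 36.3 to 37.9 CPM in siHells, against 359 to 371 CPM in siControl. The class II antigen presentation genes H2-Eb1, H2-Aa and Cd74, which macrophages also express, were lower (log2 fold changes of -4.76, -4.28 and -3.44), Flt3 and Zbtb46 were higher, and Xcr1 and Ccr7 were not analysed here. Of 10 erythroid and megakaryocyte markers 4 were tested, and Pf4, Itga2b and Gp1ba were higher in siHells. Epor did not pass the test (log2 fold change -0.60, adjusted p = 0.068). The 4 markers summed to 159.6 to 163.0 CPM in siHells, against 48.8 to 52.5 CPM in siControl. Pf4 alone had 154.3 and 156.4 CPM in siHells, against 49.7 and 46.0 CPM in siControl. The globin genes listed were not analysed here. The part of these cell type markers in the results on the enzymes was not tested.

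Of the 3 serine synthesis enzymes, Phgdh passed the test, as higher in siHells. It had 1042 and 1122 counts (19.2 and 20.9 CPM) in siHells, against 588 and 483 counts (10.7 and 9.65 CPM) in siControl. Both siHells libraries were above both siControl libraries. Its level was 20.1 ± 1.19 CPM in siHells and 10.2 ± 0.739 CPM in siControl (SD, n = 2 each), a 1.97-fold rise (log2 fold change 0.98, SE 0.087, adjusted p = 1.28e-07). Phgdh occupies 98313170 to 98339990 of chromosome 3 (GRCm38, minus strand) and has many processed pseudogenes. The 2 that were tested, Gm7901 and Gm9347, held 38.3% and 19.9% of its distinct 50-base words but drew at most 16 counts in any library, and with their counts added the log2 fold change was 0.97.

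Psat1, the next enzyme, did not pass the test. It had 41.5 and 37.4 CPM in siHells, against 38.9 and 40.0 CPM in siControl, so the siHells libraries lay on either side of the siControl ones. Its log2 fold change was 0.00 with a 95% interval of -0.13 to 0.13 (adjusted p = 0.978), an interval that leaves out the size of the Phgdh rise. Psph, the last step, had 7.56 and 8.05 CPM in siHells, against 7.22 and 8.03 CPM in siControl, and these ranges overlapped. Its log2 fold change was 0.04 (95% interval -0.20 to 0.27, adjusted p = 0.796). Annotated exons of Cct6a cover 10.4% of the Psph exons on the opposite strand. Cct6a was far more abundant, with 172.5 and 174.5 CPM in siHells, against 276.5 and 275.2 CPM in siControl. It fell by 0.67 on the log2 scale. Without known strand the reads there cannot be told apart, so Psph counts, and ratios to Psph, may include Cct6a reads.

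Within each library, Phgdh therefore stood higher against its partners. There were 0.463 and 0.558 Phgdh reads per Psat1 read in siHells, against 0.275 and 0.241 in siControl. Per Psph read there were 2.54 and 2.60 in siHells, against 1.48 and 1.201 in siControl. Neither pair of groups overlapped, and a ratio within a library does not depend on how libraries are scaled. With 2 libraries against 2, an exact two-sided permutation test cannot go below 0.333, which is the value both ratios gave.

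**Figure D1:**
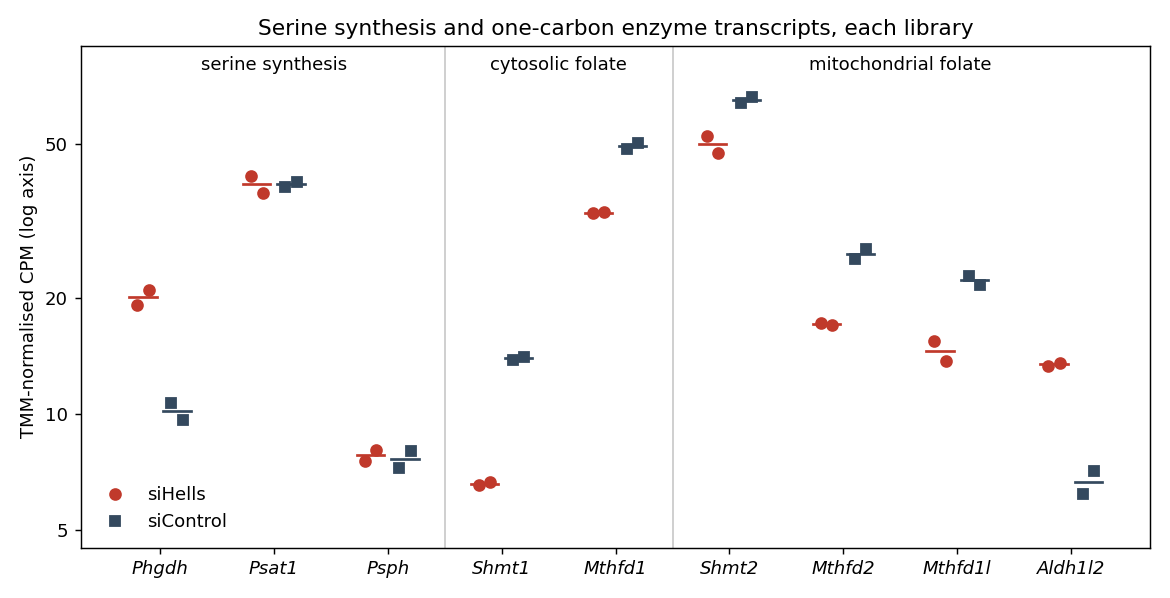
Level of each enzyme transcript in each library, as TMM-normalised CPM on a log axis, with siHells (circles) left of siControl (squares) and a bar at each group's mean (n = 2 libraries each). Phgdh and Aldh1l2 sit higher in siHells, Psat1 and Psph overlap between groups, and the 5 other folate enzymes sit lower in siHells.

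The start-site regions of Phgdh, the serine enzyme that rose, and Shmt1, the transcript that fell most, are shown because Hells is known for its part in DNA methylation, which acts at CpG dinucleotides. DNA methylation itself was not measured. The sequences are from RefSeq (GRCm38.p6), 5′ to 3′ on the gene's strand, from 250 bases before the annotated start to 50 bases from it, with each CpG in capitals:
Phgdh, chr3:98339920-98340219, minus strand: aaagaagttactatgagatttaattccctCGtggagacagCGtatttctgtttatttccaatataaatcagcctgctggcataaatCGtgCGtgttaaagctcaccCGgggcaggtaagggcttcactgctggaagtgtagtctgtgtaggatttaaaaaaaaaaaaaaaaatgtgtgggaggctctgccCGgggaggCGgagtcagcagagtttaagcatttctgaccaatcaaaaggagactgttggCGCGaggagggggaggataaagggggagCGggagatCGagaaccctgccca
Shmt1, chr11:60811216-60811515, minus strand: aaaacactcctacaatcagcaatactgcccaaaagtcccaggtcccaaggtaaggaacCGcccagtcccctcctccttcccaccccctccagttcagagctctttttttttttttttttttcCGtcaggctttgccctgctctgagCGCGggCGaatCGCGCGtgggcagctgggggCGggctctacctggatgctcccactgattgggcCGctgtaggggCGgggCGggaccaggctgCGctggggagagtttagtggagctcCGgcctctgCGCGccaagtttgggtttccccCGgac
The Phgdh window held 11 CpGs and the Shmt1 window 17, against a median of 7 over 32851 such windows, and 58.6% and 68.6% of all windows held fewer. Windows were found for 8 of the 9 genes, Psat1 having 2, and their CpG counts ran from 8 for Mthfd1l to 30 for a Psat1 start. The Psph window held 28. Searched on both strands, the core of the ATF4 composite element (TGATGNAA, in 3.97% of all windows) and the E-box bound by Myc (CACGTG, in 7.15%) matched none of these 9 windows. The core of the antioxidant response element (TGACNNNGC, in 12.39%) matched in the Phgdh window as gcggagtca, read on the other strand and starting 53 bases before the start site, and in the Psph window. These are matches of letters in a short window, not binding sites.

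The cytosolic folate enzymes fell. Shmt1, the cytosolic serine hydroxymethyltransferase, had 354 and 358 counts (6.53 and 6.67 CPM) in siHells, against 760 and 702 counts (13.8 and 14.0 CPM) in siControl. The groups were far apart beside the small gaps within them. The transcript was 2.11-fold lower in siHells, at 6.60 ± 0.100 CPM in siHells and 13.9 ± 0.142 CPM in siControl (SD, n = 2 each). The log2 fold change of Shmt1 was -1.08, with an SE of 0.096 and an adjusted p = 1.16e-07. In the GENCODE annotation Shmt1 occupies 60788104 to 60811718 of chromosome 11 on the minus strand. RefSeq places its start at 60811265, so the window shown above lies inside the GENCODE span and may not cover every start. Smcr8 overlaps 4.74% of the Shmt1 exons on the opposite strand and had a log2 fold change of -0.01. It had 114 and 115 CPM in siHells, against 114 and 117 CPM in siControl. Without known strand, Shmt1 counts may include Smcr8 reads. Mthfd1, the trifunctional enzyme that feeds purine and thymidylate synthesis, had 33.1 and 33.4 CPM in siHells, against 48.7 and 50.4 CPM in siControl. Its groups did not overlap, and it was 1.49-fold lower (log2 fold change -0.57, SE 0.053, adjusted p = 1.80e-07).

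The mitochondrial chain from serine to formate fell as well. Shmt2, the mitochondrial counterpart of Shmt1, had 52.7 and 47.5 CPM in siHells, against 64.0 and 66.3 CPM in siControl. The fall was the smallest of the 5, 1.30-fold (log2 fold change -0.38, SE 0.054, adjusted p = 2.23e-05), and the siHells libraries were further apart than the siControl ones. Mthfd2, the mitochondrial dehydrogenase and cyclohydrolase that is typical of proliferating cells, had 17.2 and 17.0 CPM in siHells, against 25.2 and 26.8 CPM in siControl. It was 1.52-fold lower (log2 fold change -0.60, SE 0.070, adjusted p = 2.35e-06). Mthfd1l, which releases formate for export to the cytosol, had 15.5 and 13.7 CPM in siHells, against 22.8 and 21.6 CPM in siControl, also 1.52-fold lower (log2 fold change -0.61, SE 0.080, adjusted p = 9.30e-06). In each of these 3 genes both siHells libraries were below both siControl libraries, as was so for 7 of the 9 enzymes in either direction, against 78.5% of all genes tested whose groups did not overlap.

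Aldh1l2, the mitochondrial formyl-tetrahydrofolate dehydrogenase, went the other way. It had 723 and 729 counts (13.3 and 13.6 CPM) in siHells, against 341 and 356 counts (6.20 and 7.11 CPM) in siControl. The siHells libraries were nearly equal and both stood clear of siControl. Its level was 13.5 ± 0.177 CPM in siHells and 6.66 ± 0.644 CPM in siControl (SD, n = 2 each), a 2.03-fold rise (log2 fold change 1.02, SE 0.101, adjusted p = 4.26e-07). Aldh1l2 occupies 83487450 to 83534140 of chromosome 10, minus strand, the chromosome that also carries Shmt2 and Mthfd1l at distant sites. D10Wsu102e covers 14.1% of its exons on the opposite strand, and its own log2 fold change was 0.03, with an adjusted p = 0.662. D10Wsu102e had 48.7 and 49.8 CPM in siHells, against 47.6 and 49.2 CPM in siControl. Without known strand, Aldh1l2 counts may include its reads. Of the 10 stromal markers tested, 7 were higher in siHells, as Phgdh and Aldh1l2 were, while Col3a1 and Runx2 were lower and Thy1 did not pass the test. Their part in these rises was not tested.

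**Figure D2:**
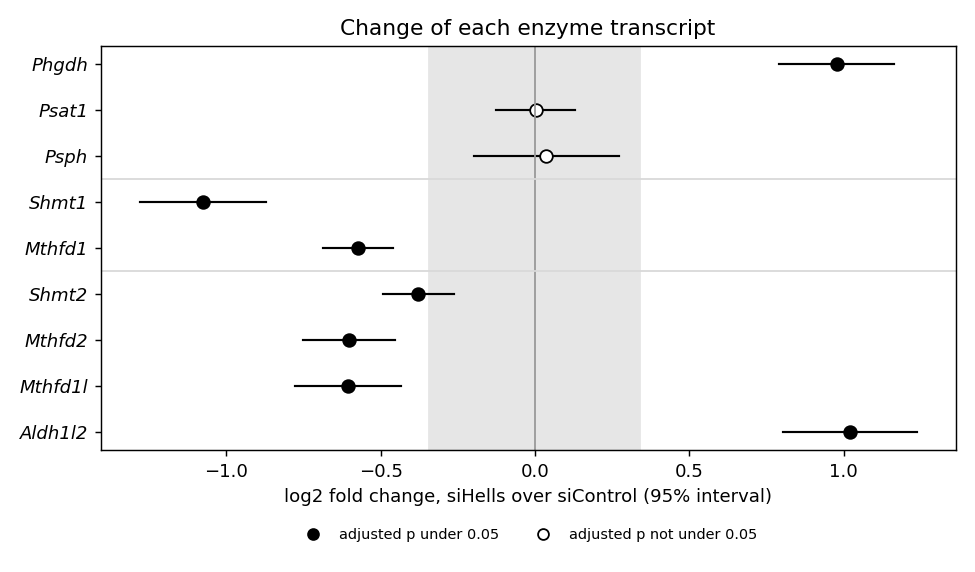
Log2 fold change of each transcript, siHells over siControl, with its 95% interval from the edgeR fit, filled where the adjusted p was under 0.05 and open where not. The grey band spans the middle of all genes tested, from the 25th percentile (-0.34) to the 75th (0.34), and 7 of the 9 transcripts have their point outside it, Shmt2 being the nearest to its edge at -0.38, with Psat1 and Psph inside.

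Ratios within a library set the changes of folate enzymes given above against each other, and add no independent evidence. Mthfd2 reads per Mthfd1 read were 0.519 and 0.509 in siHells, against 0.518 and 0.533 in siControl, and Mthfd1l reads per Mthfd1 read were 0.466 and 0.411 in siHells, against 0.468 and 0.429 in siControl. Both sets overlapped between groups, and both ratios differed by -0.03 on the log2 scale, siHells minus siControl. The ratio of the mitochondrial to the cytosolic hydroxymethyltransferase did not overlap. There were 8.06 and 7.13 Shmt2 reads per Shmt1 read in siHells, against 4.63 and 4.73 in siControl. The widest gap of the 6 ratios was between enzymes that use the mitochondrial carbon in different ways, with 0.775 and 0.799 Aldh1l2 reads per Mthfd2 read in siHells, against 0.246 and 0.265 in siControl. On the log2 scale these ratios differed by 0.70 for Shmt2 over Shmt1 and by 1.62 for Aldh1l2 over Mthfd2. Each again gave the smallest exact permutation p possible, 0.333.

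**Figure D3:**
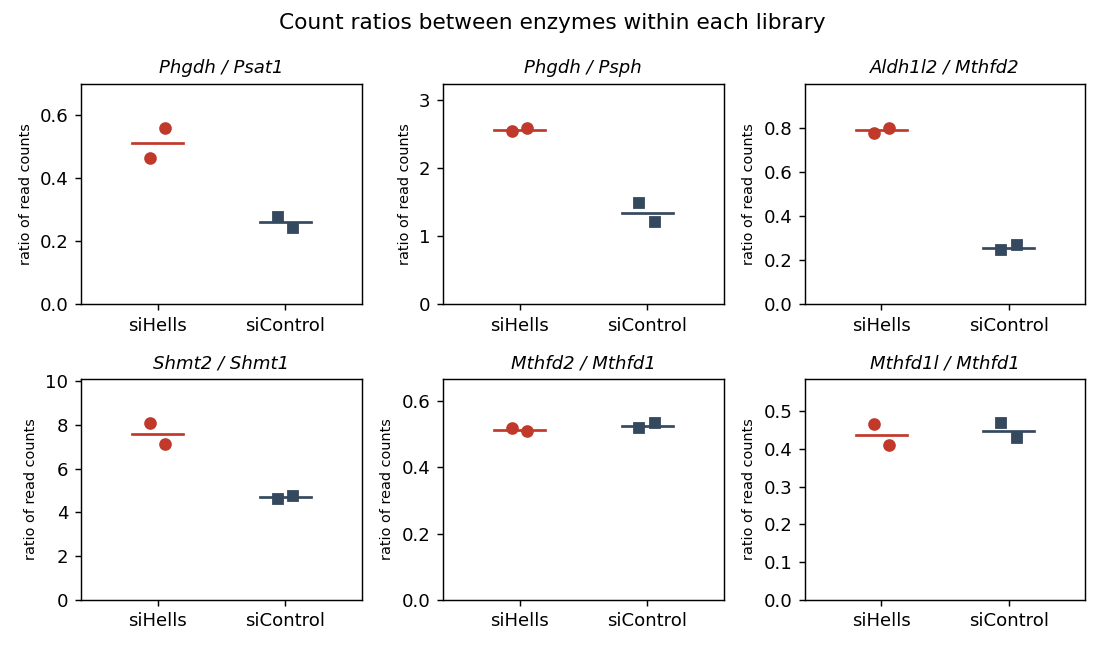
Ratio of read counts between pairs of enzymes within each library, siHells (circles) left of siControl (squares), with a bar at each group's mean (n = 2 libraries each) and every axis starting at 0. The ratios of Mthfd2 and Mthfd1l to Mthfd1 overlap between groups, and the other 4 do not.

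Per kilobase of annotated exon, which lets genes be compared, Shmt2 led in both groups with 16.1 ± 1.17 CPM per kb in siHells and 20.95 ± 0.523 CPM per kb in siControl (SD, n = 2 each). In siHells it was followed by Psat1 (9.28 CPM per kb), Phgdh (8.07), Mthfd1 (7.49), Mthfd2 (4.90), Mthfd1l (3.29), Psph (1.80), Aldh1l2 (1.79) and Shmt1 (1.70). The ranges of Psph and Aldh1l2 overlapped, and no other neighbours in that order did. In siControl the order after Shmt2 was Mthfd1 (11.2 CPM per kb), Psat1 (9.27), Mthfd2 (7.46), Mthfd1l (5.002), Phgdh (4.09), Shmt1 (3.59), Psph (1.76) and Aldh1l2 (0.887), with no overlap between neighbours. Phgdh thus ranked 3 of 9 in siHells and 6 of 9 in siControl, and Shmt1 ranked 9 in siHells and 7 in siControl. These levels use the whole exon length of each gene, not the isoforms present.

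Summed over a branch, levels were higher in siHells for serine synthesis and lower for both folate branches, but a sum hides differences between members. In the serine branch Phgdh alone passed the test. In the mitochondrial branch Aldh1l2 rose while the other 3 fell. The 3 serine synthesis transcripts summed to 68.3 and 66.4 CPM in siHells, against 56.8 and 57.7 CPM in siControl. The cytosolic folate pair summed to 39.7 and 40.0 CPM in siHells, against 62.5 and 64.4 CPM in siControl. The 4 mitochondrial folate transcripts summed to 98.7 and 91.8 CPM in siHells, against 118.2 and 121.8 CPM in siControl.

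The genes whose profile over the 4 libraries was most like that of Phgdh were Hdgfl3, Tmem243 and Adgrg3, at root mean square distances of 0.024 to 0.025 in centred log2 CPM. Those most like Shmt1 were Gm6768, Ncoa4, the receptor that sends ferritin to lysosomes, and Atp6v1c1, a proton pump subunit, at distances of 0.015 to 0.019. With 4 libraries in 2 groups, this distance is set largely by the size of the group difference.

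The steps on either side of the serine branch were lower. All 5 glycolysis genes listed there fell, beside 29.5% of all genes tested (median log2 fold change -0.45, against 0.00 for all genes tested). Gapdh had 526 and 505 CPM in siHells, against 787 and 796 CPM in siControl. Pgk1, which makes the phosphoglycerate that Phgdh draws on, had 369.0 and 368.7 CPM in siHells, against 494 and 510 CPM in siControl. Eno1 and Pkm, below the branch, had log2 fold changes of -0.61 and -0.42.

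In the list of carriers of serine, glycine and neutral amino acids, which also holds serine racemase, 5 of 10 tested genes fell, all of them carriers, and Slc1a4 was the only carrier that rose. Slc1a5, which exchanges neutral amino acids, fell most, with 57.3 and 54.8 CPM in siHells, against 131.6 and 126.9 CPM in siControl (log2 fold change -1.21). Slc38a2, a sodium-coupled amino acid carrier, fell 1.56-fold, and Sfxn1, the mitochondrial serine carrier, and its relative Sfxn3 had log2 fold changes of -0.54 and -0.47. Slc1a4, which carries alanine, serine and cysteine, rose instead, with 7.60 and 6.93 CPM in siHells, against 4.47 and 3.38 CPM in siControl (log2 fold change 0.88, adjusted p = 7.80e-05). Srr, serine racemase and no carrier, rose by 0.26 on the log2 scale, and it lost its call without siControl replicate 1 (log2 fold change 0.17) and with library totals (0.18). Another list held the glycine cleavage system, its lipoylation enzymes and other glycine enzymes. Of its 9 tested genes 4 (44.4%) fell and 0.0% rose, against the same 29.5% and 29.0% of all genes tested. The falls were led by Dld, the system's dehydrogenase shared with the tricarboxylic acid cycle, at 1.80-fold, and Gcsh, its lipoyl carrier, at 1.46-fold. The other 2 that fell were Gcat, which makes glycine from threonine, and Lipt1, a lipoyl transferase, lower by 1.71-fold and 1.74-fold. The cleavage system's decarboxylase Gldc and aminomethyltransferase Amt did not pass the test, with log2 fold changes of 0.12 and 0.16 (adjusted p = 0.77 and 0.66).

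Among 16 other folate genes 7 fell and 4 rose, beside 29.5% and 29.0% of all genes tested. The share that fell was thus above that of all genes, and the share that rose was slightly below it. The receptor Folr2, found on tissue macrophages, had 116.8 and 120.9 CPM in siHells, against 65.5 and 63.9 CPM in siControl. Ggh, which trims polyglutamated folate, rose 1.61-fold. The proton-coupled folate transporter Slc46a1 fell 2.05-fold, to 7.58 and 6.37 CPM in siHells, against 14.8 and 13.7 CPM in siControl. In the methionine cycle and transsulfuration list 5 of 17 genes (29.4%) rose, near the share of all genes, and 7 (41.2%) fell. Ahcy, which clears S-adenosylhomocysteine, rose 1.67-fold and Gclm, a subunit of the enzyme that starts glutathione synthesis, 1.70-fold, while Gss, which completes glutathione, and Adi1, of methionine salvage, had log2 fold changes of -0.81 and -0.48.

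In the nucleotide pathways that take up folate carbon, falls outnumbered rises. In de novo purine synthesis 9 of 14 genes (64.3%) fell and 2 (14.3%) rose (median log2 fold change -0.17). Of all genes tested, 29.5% fell and 29.0% rose. Atic, whose formyl transfer uses the folate made by Mthfd1, had 61.9 and 57.7 CPM in siHells, against 88.8 and 91.9 CPM in siControl. Impdh1 and Adss, of the guanine and adenine branches, fell by 0.58 and 0.42. The 2 that rose were Prps1 and Prps2, which make the ribose precursor, each by 0.40. Prps1l3, a Prps gene on the same list, fell, with a log2 fold change of -0.39. In pyrimidine and thymidylate synthesis 10 of 14 (71.4%) fell and 1 (7.1%), Ctps2, rose by 0.65 (median -0.47). Tk1, Umps and Rrm1 fell 1.78-fold, 1.47-fold and 1.46-fold. All 15 proliferation markers, 3 of which are also on the pyrimidine list, were lower, with summed levels of 959 to 973 CPM in siHells, against 1376 to 1410 CPM in siControl. The part of this difference, and of that in the osteoclast markers given above, in the falls of Mthfd1, Mthfd2, Shmt1, Shmt2 and Mthfd1l was not tested.

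Of 27 genes of the ATF4 and amino acid response, 14 (51.9%) rose and 8 (29.6%) fell, beside 29% and 29.5% of all genes tested (median log2 fold change 0.29, against 0.00 for all genes). Atf4 itself was lower, with 127.5 and 123.9 CPM in siHells, against 153.5 and 148.0 CPM in siControl (log2 fold change -0.26, adjusted p = 2.15e-05). Its partner gene Cebpg had 118 and 119 CPM in siHells, against 62.1 and 64.4 CPM in siControl, and Atf5, a related factor, had 67.1 and 61.7 CPM in siHells, against 29.4 and 29.5 CPM in siControl. Ddit4 and Vldlr led the list, with log2 fold changes of 5.24 and 1.67. Besides Atf4, the genes that fell were Slc7a1, Gars, Aldh18a1, Asns, Aars, Sars and Wars. Their log2 fold changes were, in that order, -0.61, -0.47, -0.39, -0.24, -0.21, -0.14 and -0.14. Of the 5 enzymes named above as ATF4 targets, Phgdh and Aldh1l2 rose, Shmt2 and Mthfd2 fell, and Psat1 did not pass the test. ATF4 is controlled largely in translation, which mRNA levels do not show.

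Among 9 genes that signal to ATF4, 3 rose and 3 fell (33.3% each), near the 29.0% and 29.5% of all genes tested. Eif2s1, the initiation factor subunit that the stress kinases phosphorylate, fell by 0.43, and Dele1 and Oma1, which relay mitochondrial stress in human cells, fell by 0.38 and 0.31. Ppp1r15b, a phosphatase subunit, and the kinase gene Eif2ak2 rose by 0.37 and 0.32 on the log2 scale. Of 14 regulators of serine synthesis genes tested, 6 (42.9%) rose and 3 (21.4%) fell. With library totals in place of TMM, 3 rose and 6 fell. Myc had 41.8 and 39.1 CPM in siHells, against 49.6 and 49.9 CPM in siControl (log2 fold change -0.30, adjusted p = 1.74e-04). Bach1, a repressor of antioxidant genes, rose 1.70-fold and Smad4 1.34-fold, and Trp53 fell 1.26-fold. Nfe2l2, which encodes NRF2, had 224 and 226 CPM in siHells, against 214 and 217 CPM in siControl and did not pass the test (log2 fold change 0.06, adjusted p = 0.117).

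**Figure D4:**
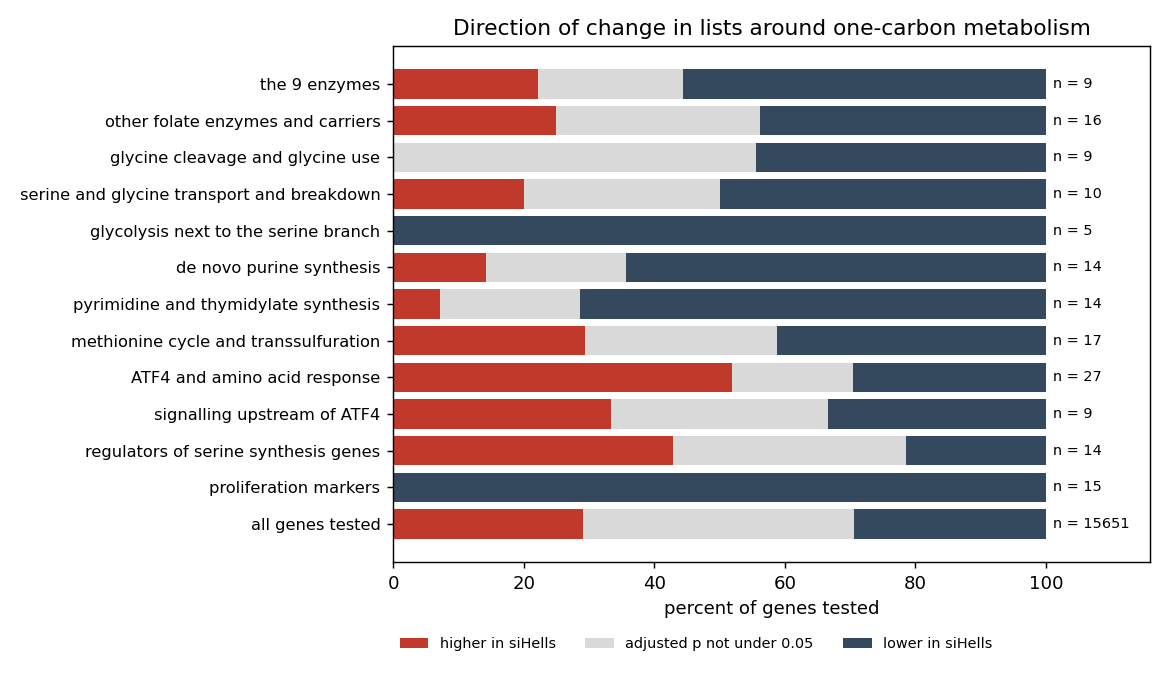
Share of tested genes in each list that were higher in siHells, did not pass an adjusted p of 0.05, or were lower in siHells, with the number tested at the right. All genes tested split into 29% higher and 29.5% lower, and the glycolysis and proliferation lists are lower throughout, while the ATF4 and amino acid response list has 51.9% higher.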

How the data were processed

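The values the authors deposited are raw counts, whole numbers for each gene symbol, with a column for each of the 4 libraries. Per the submitters' processing notes the build was mm10, and HISAT2 2.1.0, StringTie 2.1.3b, Trimmomatic 0.38, edgeR and FastQC were used in roles that are not stated. The labels' protocols name both a SMARTer and a TruSeq Stranded kit, so strandedness is unknown, and overlapping genes are uncertain. No count in it was under 1, so a gene without reads in any 1 library was not analysed here.

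Genes were kept by filterByExpr (minimum count 10, minimum total 15), scaled by TMM and tested with the quasi-likelihood test of edgeR 4.0.16 (R 4.3.3; robust, group as the only term, 2 residual degrees of freedom), with Benjamini-Hochberg adjustment and a threshold of 0.05. The SE is the log2 fold change over the square root of F. The procedure was tested on simulated data. Equal replicate numbers were not treated as pairs. Exon lengths, overlaps and shared 50-base words came from GENCODE M21, which uses the same build, and promoters from RefSeq. The enzymes, lists and the rule for genes named (up to 4 with the smallest p per pathway list, exceptions where 3 or fewer, Atf4, Myc, Nfe2l2, and 3 nearest profiles) were chosen with earlier results of these data known. A gene that this rule names is not reported here. Overlapping neighbours, pseudogenes, the motifs, Prps1l3 and the falls named in the ATF4 list were chosen after seeing the data. The pairs of enzymes for the ratios were picked with earlier results of these data known. Alternatives were other scalings, filters, tests and thresholds, the replicate block, each library left out, DESeq2 1.42.0, limma 3.58.1 voom, and, added later, Phgdh summed with its pseudogenes.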

Additional observations from a re-analysis of the deposited data

How the results depend on the processing

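Each of the 7 enzymes called, and the lack of a call for Psat1 and Psph, held under every scaling, filter and test against no change that was run, at an adjusted p threshold of 0.01, and without any 1 library. Without 1 library the log2 fold change ran from 0.90 to 1.05 for Phgdh, 0.91 to 1.11 for Aldh1l2, -1.10 to -1.06 for Shmt1, -0.61 to -0.55 for Mthfd1, -0.45 to -0.31 for Shmt2, -0.66 to -0.56 for Mthfd2 and -0.70 to -0.52 for Mthfd1l. Against a change of 1.5-fold in place of none, 3 enzymes passed, with Phgdh and Aldh1l2 higher and 1 lower, Shmt1, and 2357 genes passed in all. Mthfd1 (-0.57), Shmt2 (-0.38), Mthfd2 (-0.60) and Mthfd1l (-0.61) did not pass it. On the purine and glycolysis lists 0 genes passed it in either direction. On the pyrimidine list 1 passed as lower and 0 as higher. Of all genes tested, 1096 passed as lower and 1261 as higher. With the replicate block 7 enzymes and 9087 genes were called, against 7 and 9153 without it, and no call of an enzyme changed. The correlation across genes of the replicate 1 minus 2 differences between groups was 0.050, and the labels say nothing of pairing, so the numbers were not taken as pairs. Among regulators of serine synthesis genes, 3 rose and 6 fell with library totals, against 6 and 3 with TMM.

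With 2 libraries a group, the spread behind each test rests on 2 residual degrees of freedom and on information shared across genes. Counts were 341 to 3517 per enzyme and library. Transcript levels say nothing of enzyme amount or flux.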
